A study of Mus musculus with 6 samples.

Results

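The RNA interference machinery was described here through 10 genes: the 4 Argonautes Ago1, Ago2, Ago3 and Ago4, the nucleases Dicer1 and Drosha, the Drosha partner Dgcr8, and the 3 GW182 genes Tnrc6a, Tnrc6b and Tnrc6c. They were taken by gene name from a table of 53715 genes, and each name matched 1 row. The cells were immortalized mouse podocytes, the epithelial cells that cover the capillaries of the kidney glomerulus. They were proliferated at 33 °C in 10% serum with interferon gamma and differentiated at 37 °C in 5% serum on 12 mg/ml type I collagen for 10 to 14 days. One group of 3 libraries (genotype label WT) received a scrambled siRNA, and the other group of 3 (genotype label TFEB knockdown) received an siRNA against Tfeb, a transcription factor of lysosome and autophagy genes. Both groups therefore carry a transfected siRNA, and no untransfected library was analysed here. For the siRNA sequences, their amount and the time after transfection, nothing is stated in the sources used here.

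RNA interference uses short RNAs to guide an Argonaute protein to matching transcripts. Drosha and DGCR8 form the microprocessor, which cuts miRNA hairpins out of primary transcripts in the nucleus, and Dicer cuts the exported hairpin into a short duplex. One strand of the duplex is loaded into an Argonaute, and among the mammalian Argonautes AGO2 is the one best known for slicing a fully matched target. GW182 proteins (TNRC6A, TNRC6B and TNRC6C) bind Argonautes and recruit the enzymes that remove the poly(A) tail and the cap. A synthetic siRNA duplex enters at the loading step and uses the same Argonautes, downstream of the microprocessor and Dicer cuts. The genes described here cover this route of both siRNAs and the miRNA steps before it. In podocytes, loss of Dicer or Drosha is known to damage the glomerular filter.

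Libraries held 18062898 to 20610888 reads, derived from the deposited FPKM (a read level per kilobase of transcript and per depth of the library). Tfeb itself (ENSMUSG00000023990) had 1.80, 2.05 and 2.27 FPKM in the scrambled libraries and 0.639, 0.714 and 0.822 FPKM in the Tfeb siRNA libraries (replicates 1 to 3 in order, here and for every gene), so the mean was 35.5% of the scrambled one (limma adjusted p = 0.00148). Of 10 podocyte markers, 6 had a mean of 1 FPKM or more, among them Synpo, Actn4, Cd2ap and Nes, whereas the slit diaphragm gene Nphs1, together with Wt1 and Ptpro, had group means of at most 0.504 FPKM. Of the 6 tested markers, 2 rose, Podxl among them, and Synpo alone fell. These shares were 33.3% and 16.7%, against 16.9% and 16.4% of all tested genes. None of 6 endothelial markers was tested, and of 6 leukocyte markers Csf1r alone was (4.25 and 2.24 FPKM, called lower), with Ptprc at or near 0. Of 6 tubule markers Lrp2 alone was tested and of 6 mesangial markers Pdgfrb, Acta2 and Gata3 were, none of these 4 called. The mesangial marker Des, which missed the filter on its mean over all libraries, had 1.32, 1.27 and 1.66 FPKM against 0.550, 0.408 and 0.551 FPKM, without overlap, from 332 and 108 reads, and was called lower by limma with no filter (adjusted p = 0.0147). The part of these markers in the results was not tested. These values are from bulk RNA, in which fewer cells of a type and less RNA per cell cannot be told apart.

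Of the 10 genes, 1 rose and 1 fell with the Tfeb siRNA, and both are Argonautes. Ago2 was 1.28-fold higher and Ago3 fell to 66.6% of its scrambled mean. Another 7 genes did not pass the test, and Ago4 lay below the expression filter (a mean of 1 FPKM over the 6 libraries). The test was limma on log2(FPKM + 0.5) over 12257 genes, with Benjamini-Hochberg adjustment and a call at an adjusted p below 0.05. Over all tested genes 33.3% were called, 16.9% higher and 16.4% lower, so 2 calls among 9 tested genes are not more than the background. The median log2 fold change was -0.0054 over the 9 tested genes and 0.02 over all tested genes. The groups did not overlap for 3 of the 9, Ago2, Ago3 and Tnrc6c, against 48.7% of all tested genes.

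**Figure D1:**
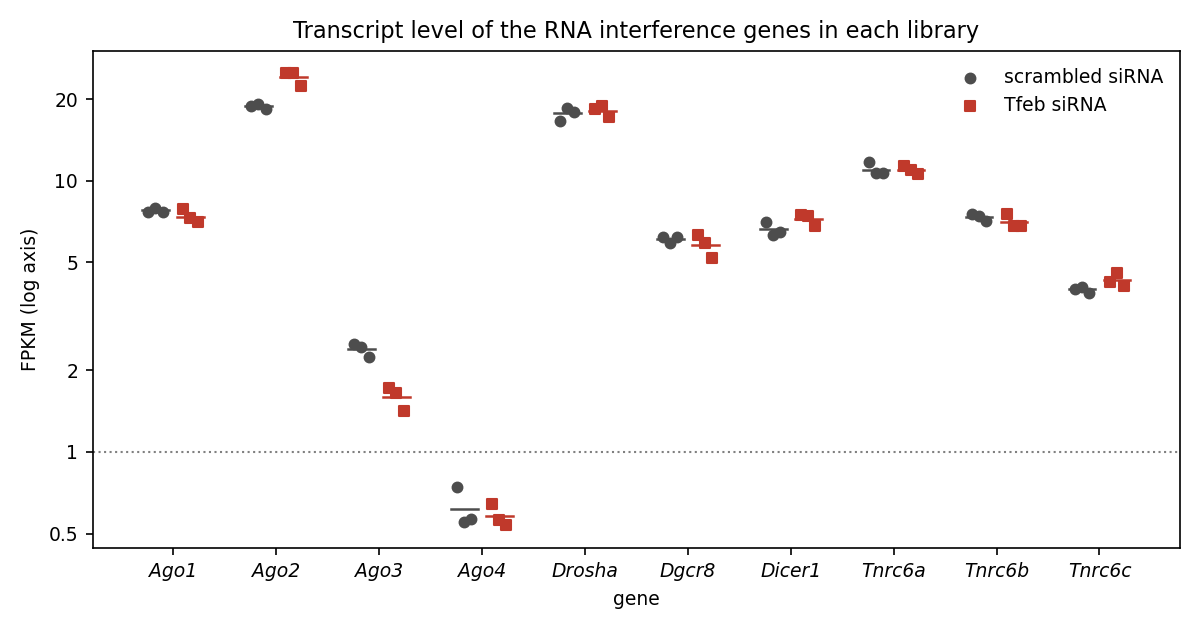
FPKM of each gene in each library, on a log axis, with the 3 scrambled siRNA and the 3 Tfeb siRNA libraries as points and a bar at each group mean. Ago2 sits higher in all 3 Tfeb siRNA libraries (22.4 to 24.9 FPKM) than in the scrambled ones (18.4 to 19.2), Ago3 sits lower (1.41 to 1.73 against 2.25 to 2.50), and the other genes lie close together or overlap.

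Ago2 (ENSMUSG00000036698, mm10 chr15:73095844-73184935, minus strand) was the most abundant of the 10 transcripts. Its scrambled libraries gave 18.9, 19.2 and 18.4 FPKM, and its Tfeb siRNA libraries gave 24.9, 24.9 and 22.4 FPKM. Every Tfeb siRNA library was above every scrambled one. The means were 18.8 ± 0.384 and 24.1 ± 1.44 FPKM (SD, n = 3), with an exact permutation p = 0.1, the smallest that 3 against 3 libraries can give. The limma log2 fold change was 0.34 (SE 0.06, 95% interval 0.21 to 0.48, adjusted p = 0.00495), and it rested on 16503 scrambled and 19427 Tfeb siRNA reads. Ago2 was called higher under each of 13 alternative settings, with limma adjusted p from 0.00438 to 0.0234. In the annotation, 219 of its exonic bases overlap Chrac1 on the opposite strand, and 3.46% of its 50-base words are shared with other genes. Of all tested genes, 12.6% had a more positive log2 fold change than Ago2.

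Ago3 (ENSMUSG00000028842, mm10 chr4:126331704-126429556, minus strand), a less studied Argonaute that also binds miRNAs, moved the other way. Scrambled libraries gave 2.50, 2.44 and 2.25 FPKM for it, and Tfeb siRNA libraries gave 1.73, 1.65 and 1.41 FPKM. All 3 Tfeb siRNA libraries lay below the lowest scrambled one. The means were 2.40 ± 0.131 and 1.60 ± 0.164 FPKM (SD, n = 3; exact permutation p = 0.1), and the limma log2 fold change was -0.47 (SE 0.10, 95% interval -0.71 to -0.23, adjusted p = 0.0125). The transcript is long, so this low level still rested on 2479 scrambled and 1518 Tfeb siRNA reads. It was called lower under each of the 13 alternatives, with limma adjusted p from 0.00655 to 0.0437. A more negative log2 fold change was found for 7.17% of tested genes.

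Ago1 lies between Ago3 and Ago4 on the same strand of chromosome 4. Ago3, Ago1 (mm10 chr4:126435012-126468583) and Ago4 (mm10 chr4:126489541-126533472) lie within 201769 bases, with gaps of 5455 and 20957 bases between them. Ago1, the second most abundant Argonaute, had 7.71, 7.96 and 7.70 FPKM in the scrambled siRNA libraries and 7.85, 7.28 and 7.03 FPKM in the Tfeb siRNA libraries. These ranges overlapped, and its limma log2 fold change of -0.07 (95% interval -0.21 to 0.07) had an adjusted p of 0.383. Ago4 had 0.739, 0.550 and 0.565 FPKM against 0.642, 0.562 and 0.536 FPKM, from 268 and 231 reads per group. Its groups overlapped too, and with no expression filter the limma log2 fold change was -0.05 (SE 0.14, adjusted p = 0.860). Of the 3 neighbours, Ago3 alone passed the test, and the differences between their changes were not tested.

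FPKM is per gene length, so the 4 Argonautes can be set side by side as shares of their summed FPKM. That length covers all annotated exons joined, 16571 bases for Ago3, 14031 for Ago2, 8120 for Ago1 and 6947 for Ago4. The expressed length may be shorter, so the shares between genes rest on the annotation. Ago2 made up 63.3%, 63.7% and 63.7% of the sum in the scrambled libraries and 70.9%, 72.4% and 71.4% in the Tfeb siRNA libraries. The share of Ago3 was 8.37%, 8.11% and 7.77% in the scrambled libraries and 4.91%, 4.79% and 4.50% in the Tfeb siRNA libraries. For neither gene did the groups overlap. The ratio of Ago2 to Ago3 was accordingly 7.57, 7.85 and 8.20 in the scrambled libraries and 14.4, 15.1 and 15.9 in the Tfeb siRNA libraries. Ago1 held 26.3% ± 0.402 and 22% ± 0.691, and Ago4 held 2.08% ± 0.347 and 1.72% ± 0.0980 (SD, n = 3). Shares sum to a whole, so a higher share of Ago2 lowers the others without any change in their own level. The summed Argonaute level was 29.8, 30.1 and 28.9 FPKM against 35.1, 34.4 and 31.4 FPKM, and these groups did not overlap either.

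**Figure D2:**
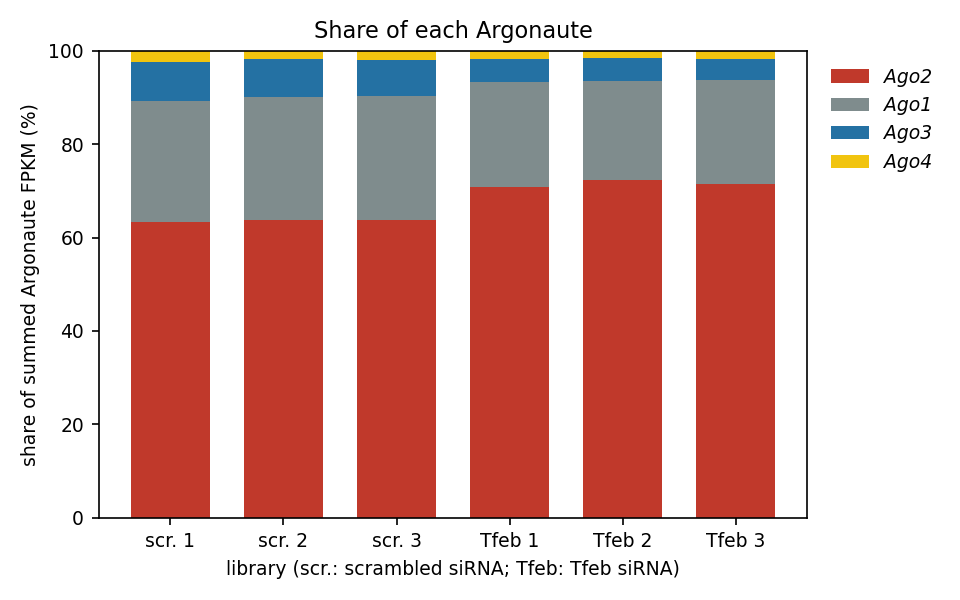
Share of the summed FPKM of the 4 Argonautes (percent, stacked to the whole) in each of the 6 libraries. The Ago2 part is 63.3% to 63.7% in the scrambled siRNA libraries and 70.9% to 72.4% in the Tfeb siRNA libraries, while the Ago3 part is 7.77% to 8.37% and 4.50% to 4.91%.

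The microprocessor genes did not pass the test. Drosha, the nuclease of the complex (ENSMUSG00000022191, mm10 chr15:12824815-12935291), had 16.7, 18.5 and 18.0 FPKM in the scrambled libraries and 18.4, 18.9 and 17.3 FPKM in the Tfeb siRNA libraries. Dgcr8, its double-stranded RNA binding partner (ENSMUSG00000022718, mm10 chr16:18253948-18289249), had 6.19, 5.88 and 6.21 FPKM against 6.31, 5.88 and 5.18 FPKM. Both pairs of groups overlapped. The limma log2 fold change was 0.03 for Drosha (95% interval -0.11 to 0.18, adjusted p = 0.703) and -0.07 for Dgcr8 (95% interval -0.26 to 0.12, adjusted p = 0.529). The value of Dgcr8 is less certain than the others, because 15.0% of its 50-base words are shared with other annotated genes. Its exons also overlap those of 4 other genes, by 1319 bases when summed gene by gene. Among these are the protein-coding genes Gm49776 on the same strand and Trmt2a on the opposite strand. Whether the counting used strand is not stated. Drosha stood at 2.91 ± 0.231 times the level of Dgcr8 in the scrambled libraries and at 3.15 ± 0.221 times in the Tfeb siRNA libraries (SD, n = 3).

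Dicer1 (ENSMUSG00000041415, mm10 chr12:104687742-104751952, minus strand), which produces the short duplex, had 7.06, 6.32 and 6.50 FPKM in the scrambled libraries. In the Tfeb siRNA libraries it had 7.46, 7.43 and 6.83 FPKM. The highest scrambled library exceeded the lowest Tfeb siRNA library, and the means of 6.63 ± 0.386 and 7.24 ± 0.353 FPKM (SD, n = 3) gave a limma log2 fold change of 0.12 (95% interval -0.04 to 0.28, adjusted p = 0.208). This was the largest difference among the tested genes of the machinery that were not called. It rested on 6933 and 6973 reads per group.

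The GW182 genes, which encode the scaffold between Argonaute and the decay enzymes, did not pass the test either. Tnrc6a (ENSMUSG00000052707, mm10 chr7:123123885-123195296) had 11.7, 10.7 and 10.6 FPKM in the scrambled libraries and 11.3, 10.96 and 10.6 FPKM in the Tfeb siRNA libraries. Tnrc6b (ENSMUSG00000047888, mm10 chr15:80711313-80941085) had 7.52, 7.42 and 7.13 FPKM against 7.53, 6.82 and 6.84 FPKM. Tnrc6c (ENSMUSG00000025571, mm10 chr11:117654289-117763439) had 4.01, 4.07 and 3.86 FPKM against 4.25, 4.58 and 4.08 FPKM. The ranges overlapped for Tnrc6a and Tnrc6b, whereas the Tnrc6c groups were apart by a margin smaller than the spread within either group. The limma log2 fold changes were -0.0054 for Tnrc6a (95% interval -0.14 to 0.13, adjusted p = 0.955), -0.06 for Tnrc6b (95% interval -0.20 to 0.09, adjusted p = 0.523) and 0.10 for Tnrc6c (95% interval -0.06 to 0.26, adjusted p = 0.299). Tnrc6a made up 49.3% ± 1.15 of the summed GW182 FPKM in the scrambled libraries and 49.1% ± 0.204 in the Tfeb siRNA libraries, and the sum itself was 22.3 ± 0.818 and 22.3 ± 0.766 FPKM (SD, n = 3).

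**Figure D3:**
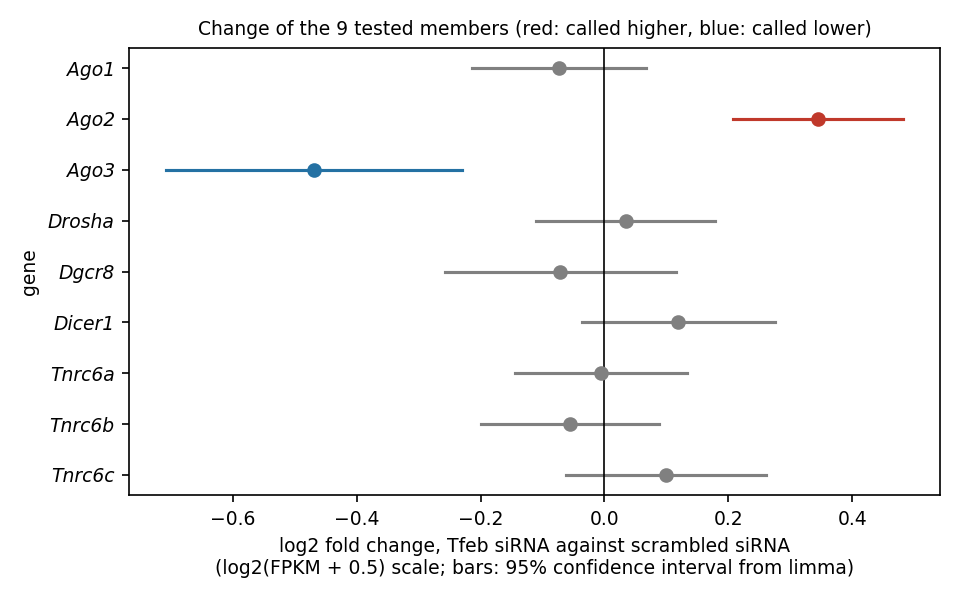
Limma log2 fold change of each gene (Tfeb siRNA against scrambled siRNA, on the log2(FPKM + 0.5) scale), with bars for the 95% interval. The interval lies above 0 for Ago2 (0.21 to 0.48) and below 0 for Ago3 (-0.71 to -0.23), and it spans 0 for the others.

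For the 7 tested genes that were not called, the 95% intervals of the fold change ran from 0.836 to 1.21, so each interval leaves out a change as large as that of Ago2 or Ago3. The order of levels per length was nearly the same in both groups. In the scrambled libraries it ran Ago2, Drosha, Tnrc6a, Ago1, Tnrc6b, Dicer1, Dgcr8, Tnrc6c, Ago3 and Ago4, and of these neighbours only Ago2 and Drosha overlapped in range. In the Tfeb siRNA libraries Ago2 stood clear of Drosha, and Dicer1 (7.24 FPKM) came between Ago1 (7.39 FPKM) and Tnrc6b (7.07 FPKM), overlapping both. The germline Argonaute relatives Piwil1, Piwil2 and Piwil4 reached at most 0.347 FPKM in any library and were not tested.

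Short matches in the 3′ untranslated regions (UTRs) were read next, because seed pairing in a 3′ UTR is how a miRNA, and often an siRNA strand, is known to act on many transcripts. An earlier analysis of these same libraries had ranked 7-base words by the fold changes of the genes that hold them, and 8 of its words were searched here on the transcript strand. From the side of genes that fell came CTACATA with its overlapping partner TACATAA, and the word GGCCATG with its overlapping partner GCCATGA. From the side of genes that rose came TCGGAGA with its overlapping partner CGGAGAA, and the word TGTCACG with its overlapping partner GTCACGA. All tested genes, Ago2, Ago3 and the related genes among them, were part of the data that chose the words. Every count of matches, over these genes or over the whole table, is therefore a description that restates that choice in part and supports nothing. The sites of the 2 genes that passed the test, and of Ago1 beside Ago3, are shown 5′ to 3′. They are on the minus strand of mm10, with the word in capitals.
Ago3, chr4:126342068-126342096: tgggcacatttCTACATAaatacggatga
Ago3, chr4:126333878-126333906: aggccagtcacGGCCATGgagcaaaacct
Ago3, chr4:126343569-126343597: agccccaccccGCCATGAacaggaatgca
Ago2, chr15:73097301-73097329: agaaaataagaTCGGAGAtcgataacttt
Ago1, chr4:126437623-126437651: ctggcgatgaaGCCATGAtatgttagctc
Ago1, chr4:126437341-126437369: acaggcccagcCGGAGAAcagaacggagg

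Ago3 held all 4 falling words and no rising one in a 3′ UTR of 12742 bases. CTACATA and TACATAA lie in the same run there, in the first Ago3 window above, 1 base apart. Ago2 held no falling word and 1 rising word in a 3′ UTR of 11064 bases, and Ago1 held 1 of each in 4491 bases. Tnrc6b held 3 kinds of falling word in 11609 bases without passing the test. Dicer1 held GGCCATG at 2 sites in 3851 bases and Tnrc6a held it at 1 site in 2345 bases, and neither was called. None of the 8 words stood in Ago4, Tnrc6c, Dgcr8 or Drosha, whose 3′ UTR of 169 bases was the shortest. The GGCCATG windows of Dicer1 and Tnrc6a are shown for comparison with that of Ago3, as genes that hold the same word and were not called, on the minus strand for Dicer1 and the plus strand for Tnrc6a.
Dicer1, chr12:104691228-104691256: ttggtgttagaGGCCATGgagcttaacct
Dicer1, chr12:104688957-104688985: cccagaggggaGGCCATGcttgggcctca
Tnrc6a, chr7:123193806-123193834: gagcagcagttGGCCATGttcttctgttt

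A longer 3′ UTR has more places for any word, so the shares over other genes were counted. Of 10473 tested genes with an annotated 3′ UTR (median 1200 bases), 30.9% held a falling word and 7.84% a rising one. Single falling words stood in 10.0% (CTACATA), 12.3% (TACATAA), 11.8% (GGCCATG) and 9.25% (GCCATGA) of them, and the rising words in 2.07% (TCGGAGA), 2.49% (CGGAGAA), 3.15% (TGTCACG) and 1.56% (GTCACGA). Of all these genes 18.0% were called higher and 17.9% lower, and of the 6816 with neither kind of word 18.2% and 14.3%. The words were picked by the fold changes of these same genes, so more lower calls beside falling words and more higher calls beside rising ones were built in. All 4 falling words stood in 35 genes, of which 17 (48.6%) were called lower and 1 higher. Of 179 genes with 3 kinds, as in Tnrc6b, 65 (36.3%) were called lower and 18 higher. A rising word without a falling one, as in Ago2, was found in 419 genes, of which 170 (40.6%) were called higher and 38 lower. Among 32 genes with a 3′ UTR of at least 10000 bases, 30 held a falling word, and Ago2 was 1 of the 2 that did not. In that group 4 genes were called lower and 2 higher, Ago3 and Ago2 among them. The part of these words in the changes of Ago2 and Ago3 was not tested.

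**Figure D4:**
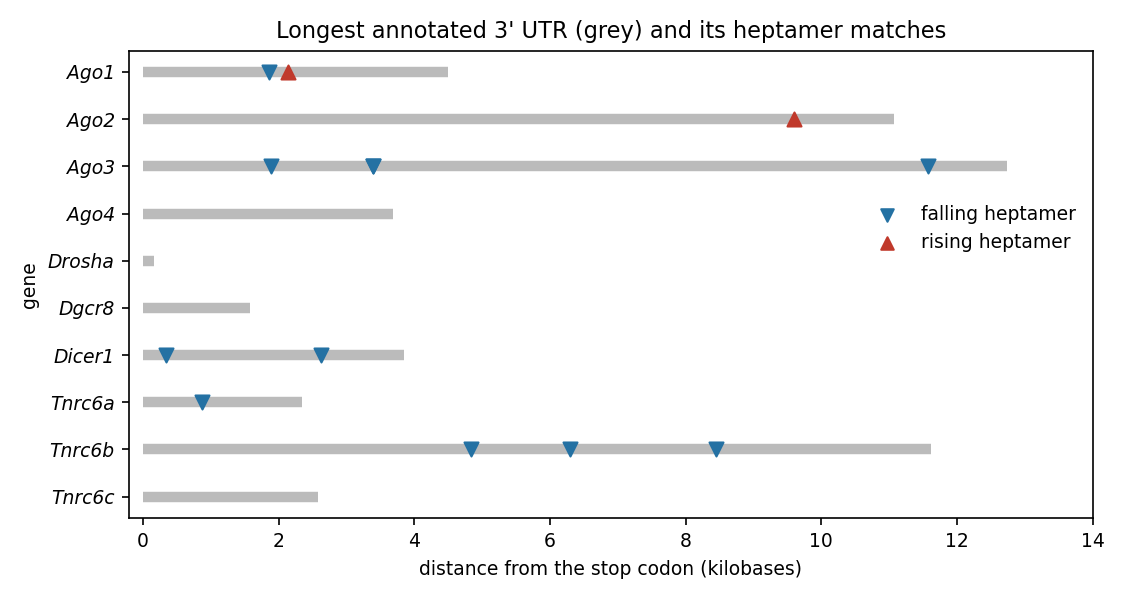
Longest annotated 3′ UTR of a protein-coding transcript of each gene, drawn to scale from the stop codon (kilobases), with triangles at the falling and the rising words. Ago3 carries falling words at 3 places, 1 of them 2 overlapping words, while Ago2, of similar length, carries 1 rising word.

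The genes around the machinery were read from 7 lists of processing partners, miRNA decay, Argonaute loading, deadenylation, decapping, miRNA host transcripts and the PIWI clade. Of their 98 tested genes, 27 rose and 10 fell (27.6% and 10.2%), against 16.9% and 16.4% of all tested genes. The median log2 fold change was 0.08, against 0.02 for all tested genes. Without single libraries the counts ranged from 15 to 22 higher and from 6 to 9 lower. The higher count moved most without scrambled siRNA replicate 3 (15) and Tfeb siRNA replicate 1 (17). The lower count moved most without scrambled siRNA replicate 2 or Tfeb siRNA replicate 2 (6 each). Counts over all genes, 2075 higher and 2005 lower with all libraries, fell in these fits too. They were 1412 and 1582 higher, and 1519 and 1479 lower, in that order.

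Of 21 processing and export genes, 8 rose and 1 fell (38.1% and 4.76%, against 16.9% and 16.4% of all tested genes). Hnrnpa1, an RNA-binding protein known to help process the pri-miR-18a hairpin, had 60.6, 58.8 and 64.6 FPKM in the scrambled libraries and 99.7, 92.2 and 87.9 FPKM in the Tfeb siRNA libraries. Its groups were far apart (limma log2 fold change 0.60, SE 0.07, adjusted p = 0.00100), although processed pseudogenes, known for this gene, can share reads with it. Ncbp2, a subunit of the nuclear cap-binding complex, rose from 29.9 ± 0.371 to 40.4 ± 2.91 FPKM (SD, n = 3; limma adjusted p = 0.00292). Safb2, a scaffold attachment factor that assists Drosha on poor hairpins, rose from 7.44 ± 0.631 to 10.0 ± 0.502 FPKM (SD, n = 3; limma adjusted p = 0.00649). Prkra, the Dicer partner PACT, fell from 10.9 ± 0.389 to 9.0 ± 0.870 FPKM (SD, n = 3; limma adjusted p = 0.0320), a call that held in 8 of 13 alternatives with adjusted p up to 0.0970. Tarbp2, the other Dicer partner, had 6.82 and 6.11 FPKM, and the hairpin exporter Xpo5 had 22.6 and 23.8 FPKM, and neither passed the test.

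Of 11 tested genes of miRNA tailing and decay, none rose and 3 fell (27.3%), against 16.9% and 16.4% of all tested genes. Eri1, an exonuclease of small RNAs and histone transcripts, had 6.93, 6.51 and 6.80 FPKM in the scrambled libraries and 4.70, 5.19 and 4.73 FPKM in the Tfeb siRNA libraries. The groups did not overlap (limma log2 fold change -0.43, SE 0.06, adjusted p = 0.00292). Tsn, the translin subunit of the C3PO nuclease that clears the passenger strand during loading, fell from 9.73 ± 0.403 to 7.68 ± 0.235 FPKM (SD, n = 3; limma adjusted p = 0.00562). Tut7 (Zcchc6 in the deposited table), which adds uridines to RNA ends, fell from 9.12 ± 0.212 to 7.88 ± 0.451 FPKM (SD, n = 3; limma adjusted p = 0.0391), a call that held in 7 of 13 alternatives with adjusted p up to 0.111.

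Of 23 tested genes of Argonaute loading and regulation, 7 rose and 3 fell (30.4% and 13.0%, against 16.9% and 16.4% of all tested genes). Hsp90ab1, a chaperone of the machine that opens Argonaute for its duplex, had 472, 511 and 503 FPKM in the scrambled libraries and 733, 715 and 735 FPKM in the Tfeb siRNA libraries (limma log2 fold change 0.55, SE 0.06, adjusted p = 0.000965). Its 3 Tfeb siRNA libraries were all above the scrambled ones. Csnk1a1, a kinase that phosphorylates AGO2, rose from 25.9 ± 1.21 to 32.3 ± 0.639 FPKM (SD, n = 3; limma adjusted p = 0.00488), and Ankrd52, part of the phosphatase that reverses it, fell from 19.3 ± 1.05 to 15.5 ± 0.850 FPKM (limma adjusted p = 0.0112). The chaperone genes did not move one way. Hspa8 rose from 128 ± 7.06 to 158 ± 9.07 FPKM (SD, n = 3; limma adjusted p = 0.0141, but 0.0564 without scrambled siRNA replicate 3), while the co-chaperones Dnaja2 and Stip1 fell, from 124 ± 3.10 to 105 ± 3.67 FPKM (limma adjusted p = 0.0117) and from 110 ± 2.32 to 94.3 ± 4.54 FPKM (limma adjusted p = 0.0201, called in 9 of 13 alternatives with adjusted p up to 0.070).

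Among 18 deadenylation genes, 6 rose and 2 fell (33.3% and 11.1%, against 16.9% and 16.4% of all tested genes). Btg1, an adaptor of the CCR4-NOT deadenylase that also restrains proliferation, had 17.5, 20.7 and 20.9 FPKM against 26.8, 30.2 and 32.5 FPKM. Its groups did not overlap (limma log2 fold change 0.59, SE 0.10, adjusted p = 0.00422). Tob2, a related adaptor, rose from 6.27 ± 0.459 to 8.74 ± 0.200 FPKM (SD, n = 3; limma adjusted p = 0.00295), and the complex subunit Cnot2 from 16.6 ± 0.667 to 20.5 ± 1.36 FPKM (limma adjusted p = 0.0129). The catalytic subunit Cnot6l fell from 6.02 ± 0.0653 to 4.63 ± 0.187 FPKM (SD, n = 3; limma adjusted p = 0.00481) and the subunit Cnot9, which binds GW182 proteins, from 18.9 ± 0.333 to 15.8 ± 0.505 FPKM (limma adjusted p = 0.00896). Subunits of 1 complex therefore changed in both directions.

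Among 22 tested decapping and P-body genes, 5 rose and 1 fell (22.7% and 4.55%, against 16.9% and 16.4% of all tested genes). Pnrc1, which is known to interact with the decapping enzyme, had 13.4, 15.6 and 15.5 FPKM against 23.2, 24.3 and 28.1 FPKM. Its groups were far apart, and the limma log2 fold change of 0.75 (SE 0.09) was the largest called in the 7 lists (adjusted p = 0.00145). Gigyf1, a translational repressor partner of the cap-binding protein 4EHP, rose from 3.91 ± 0.483 to 6.04 ± 0.313 FPKM (SD, n = 3; limma adjusted p = 0.00418), and Lsm14b, a P-body protein, from 14.8 ± 1.52 to 19.96 ± 1.13 FPKM (limma adjusted p = 0.00902). Dcp2, the decapping enzyme, fell from 8.31 ± 1.02 to 5.99 ± 1.02 FPKM (SD, n = 3; limma adjusted p = 0.0397), a call that held in 7 of 13 alternatives with adjusted p up to 0.106. Of the 10 related genes that fell, 6 held a falling word, with 3 kinds each in Eri1 and Dcp2, 2 each in Cnot6l and Tsn, and 1 each in Ankrd52 and Cnot9. Of 25 related genes with a falling word, 6 were called higher and 6 lower, and of 70 without one, 20 were called higher and 4 lower. These genes also helped to choose the words, so the counts support nothing.

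**Figure D5:**
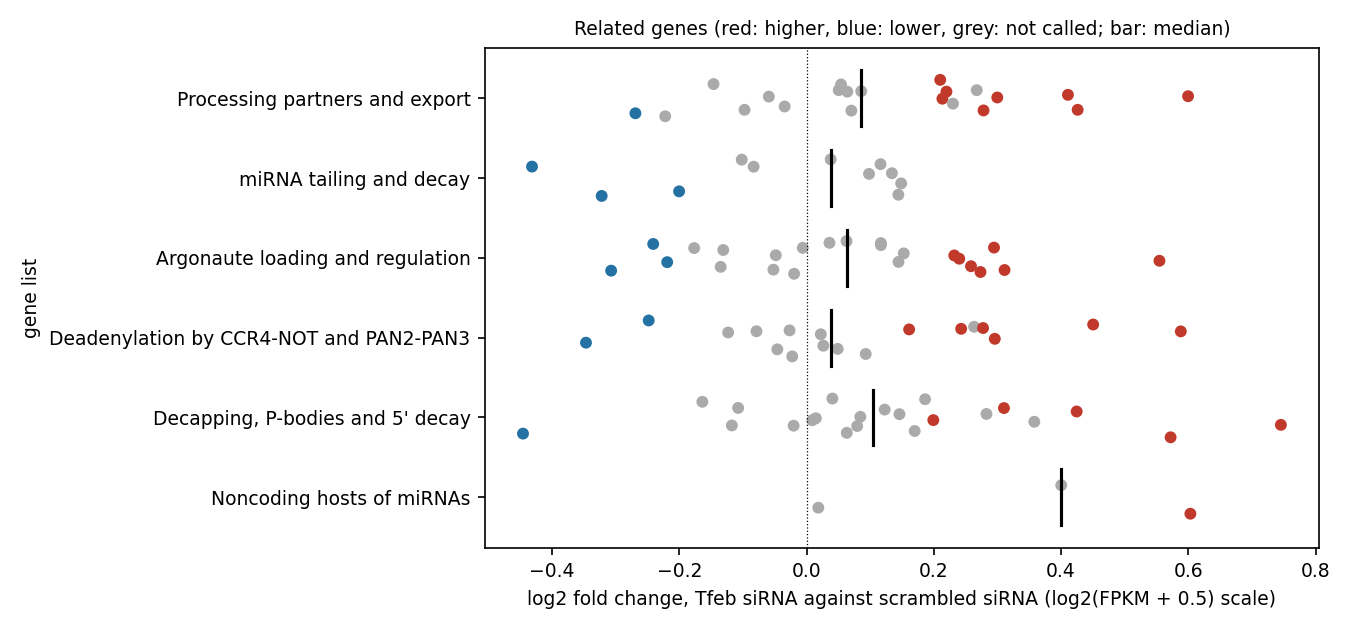
Limma log2 fold change (Tfeb siRNA against scrambled siRNA, log2(FPKM + 0.5) scale) of each tested gene of the related lists, with called genes coloured by direction, genes that were not called in grey and a bar at each list median. Red points outnumber blue ones in each list other than miRNA tailing and decay, which holds 3 blue points and no red one.

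Mature miRNAs, the natural cargo of the machinery, were not measured. Of 14 noncoding host transcripts in the table, 3 were tested and 1 was called, against 33.3% of all tested genes. Mir22hg, the host of miR-22, had 12.2, 14.0 and 13.7 FPKM in the scrambled libraries and 19.1, 21.1 and 21.2 FPKM in the Tfeb siRNA libraries. All Tfeb siRNA libraries were above the scrambled ones (limma log2 fold change 0.60, SE 0.07, adjusted p = 0.00138). The miRNAs of its hairpin are given from RefSeq (GRCm38.p6, plus strand), to show what the called host encodes, with the seed (bases 2 to 8) in capitals. They have different seeds.
miR-22-5p, chr11:75463734-75463755: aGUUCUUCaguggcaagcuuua
miR-22-3p, chr11:75463772-75463793: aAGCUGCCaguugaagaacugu

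Across the 6 libraries transcripts among those most like Ago2 in log2(FPKM + 0.5) were Fam76b (Pearson r = 0.999) and the nuclear import receptor gene Kpnb1 (0.997), of 12248 genes compared. These r values are a description, since both groups enter them and 475 genes had an r above 0.95 with Ago2. For Dicer1 the closest were Zfp142 (0.997), Atf2 (0.989) and Ctdspl2 (0.984), with 46 genes above 0.95.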

How the data were processed

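RNA was sequenced from 6 libraries, 3 in each group, with the group and replicate number taken from the sample titles. The authors deposited FPKM values per gene, with positions and lengths, per the file headers. Per the submitters' processing notes, mm10 was the genome. The sources used here do not give the aligner, counter, annotation release or strand setting. No column of another sample was present (0). Multiplied by gene length, 100% of values above 0 were whole steps (tolerance 1e-06), which gave the derived reads. The values were already scaled between libraries by median-ratio size factors (ratio 1 in each library). Reads cover counting error only. All pairs of libraries differed by more than sampling noise (chi-square per gene 4.70 to 8.93 within groups, 31.8 to 40.9 between). The labels do not call the replicates separate cultures. The p-values then reflect the spread of these samples alone, and that spread may be technical.

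Groups were compared with limma 3.58.1 (R 4.3.3; lmFit and eBayes with trend) on log2(FPKM + 0.5), for the 12257 genes averaging at least 1 FPKM, two-sided, with Benjamini-Hochberg adjustment over all of them and calls below 0.05. This scale understates the change of low genes. The script was tested on simulated data. Exact permutation tests used SciPy 1.17.1. The 10 genes, the lists and the words were chosen with earlier results of these data known. From each list up to 3 called genes with the largest change in each direction are named. Words were searched in the longest 3′ UTR of a protein-coding transcript in GENCODE M21, which need not be the one expressed. RefSeq gave miRNAs and promoters. No protein sequence was analysed here. A few genes that these rules pick are not reported here.

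The model had no replicate block. Residual correlations of same-numbered libraries were 0.382, 0.129 and 0.166, all above 0.1. Scrambled siRNA replicate 3 with Tfeb siRNA replicate 2, of unlike number, also reached 0.106. Pairing by number was used only in the replicate block alternative. This pairing comes from the data, and only number 1 stood clearly apart. The 13 alternatives were pseudocounts of 0.1 and 1, no filter, TPM, scaling to total reads, no trend, the replicate block and each library left out.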

Additional observations from a re-analysis of the deposited data

How the results depend on the processing

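The counts of 1 higher and 1 lower gene of the machinery were found under all 13 alternatives. With the replicate block, which uses the pairing by number, Ago2 had a limma adjusted p of 0.00438, and the counts over all genes were 2542 higher and 2386 lower, against 2075 and 2005 without it. The block changed no call among the 10 genes. Without single libraries, counts over all genes ranged from 1412 to 1703 higher and from 1371 to 1720 lower, and those over the related lists from 15 to 22 higher and from 6 to 9 lower. These fits have fewer samples. For 3 genes that were not called, log2 fold changes near 0 changed sign when single libraries were left out. They ranged from -0.0088 (without scrambled siRNA replicate 1) to 0.069 for Drosha, from -0.13 to 0.00088 (without Tfeb siRNA replicate 3) for Dgcr8, and from -0.028 to 0.038 (without scrambled siRNA replicate 1; 0.016 without Tfeb siRNA replicate 3) for Tnrc6a. The cause was not tested. Depth limits Ago4 most, with 268 and 231 reads per group.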

Other observations

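Of the 10 genes, 9 had an entry in the RefSeq promoter table (GRCm38.p6, a fixed window around each start), all but Ago2. CACGTG, the E-box core that TFEB is known to bind within a longer motif, was searched on both strands and stood in 1 of the 9, Tnrc6b, at an alternative start. It stood in 8.09% of the 27025 genes of the table and in 12.1% of the 8495 tested genes with an entry. The longer word TCACGTG also stood in Tnrc6b alone among the 9, and in 4.29% and 7.35% of these 2 sets. A match is a description only, and the limma adjusted p of Tnrc6b was 0.523.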
